A study of Mus musculus with 4 samples.

Results

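The protein 4.1 family comprises 7 mouse genes, Epb41, Epb41l1, Epb41l2, Epb41l3, Epb41l4a, Epb41l4b and Epb41l5, taken here by their symbols from a table of 55487 genes. The family was chosen on measured values of these same libraries, because an earlier pass found many of its members higher in inhibitory than in excitatory nuclei. The members' differences between the groups, and how many of them passed the threshold of the fit across all genes, are therefore a description and no evidence about the family. All 7 members were among the 26055 genes that reached at least 1 TPM (an abundance per transcript length, scaled to a fixed total per library) in at least 2 of the 4 libraries.

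Protein 4.1 was first described in the red blood cell, where it holds short actin filaments to spectrin and ties this network to proteins of the plasma membrane. Its relatives share a FERM domain, a clover-shaped module that binds the cytoplasmic tails of membrane proteins, and differ in the parts that follow it. In neurons, members of the family are known for anchoring receptors and adhesion molecules beneath the membrane, at synapses and beside the nodes of myelinated axons. Epb41l4a, Epb41l4b and Epb41l5 encode more distant relatives that lack the spectrin-actin binding part, and Epb41l5 is known for its role in epithelial polarity.

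The RNA came from brains of adult wild-type (WT) mice, olfactory bulb excluded, whose nuclei were separated by fluorescence-activated sorting into excitatory and inhibitory neuronal nuclei. There were 2 libraries of each, all labelled as 1 batch, and no treatment is named in the labels. The series is titled for the binding of the transcription factor EGR1 at enhancers of excitatory neurons. The sources used here do not give the markers used for the sort, the ages in weeks or the number of mice behind each library. No label states that the 2 replicates of a group are from different animals, and the p-values thus reflect only how far these libraries differ, which may be technical. Sequencing depth per library is unknown, since TPM keeps no depth.

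Sequence around the start sites is shown for 4 members, a pair with large and a pair with small differences between the groups. RefSeq promoter windows of the build GRCm38.p6, from 250 bases before to 50 bases after a start site, were matched by symbol for 5 of the 7 members and numbered 11 in all. Epb41l4a and Epb41l5 had no entry. Each window was searched on both strands for 5 motifs. In the sequences, written 5′ to 3′ along the strand of the gene, capitals mark a match and lower case the rest. Epb41 and Epb41l3 are shown because they were abundant and higher in inhibitory nuclei. The window at the first start of Epb41 is chr4:132075264-132075563 on the minus strand, and its capitals mark TGACGTCA, a sequence bound by the CREB family, at positions -250 to -243 from the start. The window at the second start of Epb41l3 is chr17:69156494-69156793 on the plus strand, and its capitals mark CAGCTG, a sequence bound by bHLH factors, at -145 to -140. Epb41l1 and Epb41l4b are shown beside them because they had among the smallest differences between the groups. Their windows are chr2:156420659-156420958 on the plus strand and chr4:57143107-57143406 on the minus strand. They hold none of the 5 motifs. The windows shown for Epb41 and Epb41l3 are ones that hold a motif. Those at Epb41 start 3 and at Epb41l3 starts 1 and 3, not shown, hold none either, nor do those at Epb41l1 starts 2 and 3. Whether motifs go with the size of the difference was not tested.
Epb41 first start: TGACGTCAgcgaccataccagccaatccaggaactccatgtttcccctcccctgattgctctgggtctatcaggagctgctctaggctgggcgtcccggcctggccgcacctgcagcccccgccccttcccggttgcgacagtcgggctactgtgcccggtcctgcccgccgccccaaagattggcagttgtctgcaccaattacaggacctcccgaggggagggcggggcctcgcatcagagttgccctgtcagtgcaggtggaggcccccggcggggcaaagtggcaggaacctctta
Epb41l3 second start: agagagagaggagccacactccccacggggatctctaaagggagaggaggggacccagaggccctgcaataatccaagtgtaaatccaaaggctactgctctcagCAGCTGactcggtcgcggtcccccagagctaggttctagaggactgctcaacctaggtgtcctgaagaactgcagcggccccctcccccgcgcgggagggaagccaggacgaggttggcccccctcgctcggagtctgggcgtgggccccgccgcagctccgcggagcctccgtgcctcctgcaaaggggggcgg
Epb41l1 first start: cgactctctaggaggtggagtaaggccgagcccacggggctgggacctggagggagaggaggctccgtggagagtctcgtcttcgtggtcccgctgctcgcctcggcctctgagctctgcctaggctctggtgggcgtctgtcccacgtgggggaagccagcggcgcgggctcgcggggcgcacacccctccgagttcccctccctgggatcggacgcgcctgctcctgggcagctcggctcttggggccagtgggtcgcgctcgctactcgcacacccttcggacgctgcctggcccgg
Epb41l4b start: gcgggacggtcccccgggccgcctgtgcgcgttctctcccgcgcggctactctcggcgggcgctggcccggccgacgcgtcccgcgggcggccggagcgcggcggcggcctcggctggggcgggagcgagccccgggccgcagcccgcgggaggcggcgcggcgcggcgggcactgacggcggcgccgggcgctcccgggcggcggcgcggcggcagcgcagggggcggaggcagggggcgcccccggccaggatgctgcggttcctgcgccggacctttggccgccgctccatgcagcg

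TGACGTCA stood in 1.79% of the 32851 promoter windows of the table, and among the members' 11 windows it was found only in that of the first Epb41 start. CAGCTG stood in 16.3% of all windows, and among the members also in the second Epb41 window, at -203 to -198. No member window held GCGTGGGCG, a sequence bound by the EGR family that stood in 0.612% of all windows, nor TAATTA, a homeobox sequence (5.29%), nor the TATA box letters TATAAA (13.6%). These are matches of letters in a short window and show no binding. The members' windows ranged widely in base composition. The GC content was 85.0% with 58 CpG pairs for Epb41l4b, 71.3% with 29 CpG pairs at the first Epb41l1 start and 65.3% with 17 CpG pairs at the first Epb41 start. The single Epb41l2 window had 50.3% GC and 7 CpG pairs, against medians of 52.7% and 7 over all windows. The third Epb41 start, 26243 bases into the gene, had 74.0% GC and 37 CpG pairs.

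Epb41 encodes the founding member, called 4.1R after the red blood cell. Its level was 93.9 and 92.3 TPM in the excitatory libraries and 180.2 and 180.7 TPM in the inhibitory libraries. The groups did not overlap, and the libraries of each group lay very close together. The means were 93.1 ± 1.14 TPM (SD, n = 2) in excitatory and 180.5 ± 0.355 TPM (SD, n = 2) in inhibitory nuclei, a ratio of 1.94. In bulk libraries such as these, fewer cells of a type and less RNA per cell cannot be told apart. On the log2(TPM + 1) scale the difference, inhibitory minus excitatory, was 0.95.

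Epb41l3 encodes 4.1B, which is known for holding Caspr proteins beside the nodes of myelinated axons and for binding adhesion molecules of the Cadm family. It was the most abundant member, at 139 and 156 TPM in the excitatory and 229.8 and 268 TPM in the inhibitory libraries. The groups did not overlap, the lowest inhibitory value being 1.48 times the highest excitatory value. The means were 147 ± 11.7 and 249 ± 27.0 TPM (SD, n = 2 each), a difference of 0.75 on the log2 scale. Oligodendrocytes form the myelin of such axons in the brain, and the summed level of 8 oligodendrocyte markers was 384 to 466 TPM in the excitatory and 293 to 413 TPM in the inhibitory libraries. Those ranges overlapped, 0 of the 8 had an adjusted or unadjusted p under 0.05 in the limma fit, and their part in the Epb41l3 values was not tested.

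Epb41l1 encodes 4.1N, the neuronal type, known for binding AMPA receptor subunits, dopamine receptors and the inositol trisphosphate receptor. Its level was 115 and 142 TPM in the excitatory and 139.6 and 173 TPM in the inhibitory libraries. The groups overlapped, since the first inhibitory library stood below the second excitatory one. The means were 129 ± 19.3 and 156 ± 23.4 TPM (SD, n = 2 each). The second library of each group stood above the first by 0.30 on the log2 scale, while the difference between the groups was 0.28. It is the only member whose groups overlapped.

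Epb41l2 encodes 4.1G, the widely expressed type, known for binding adenosine receptors. Its level was 50.9 and 49.7 TPM in the excitatory and 59.3 and 61.4 TPM in the inhibitory libraries. The values did not overlap, with a small gap. The means were 50.3 ± 0.891 and 60.4 ± 1.49 TPM (SD, n = 2 each), a difference of 0.26 on the log2 scale.

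**Figure D1:**
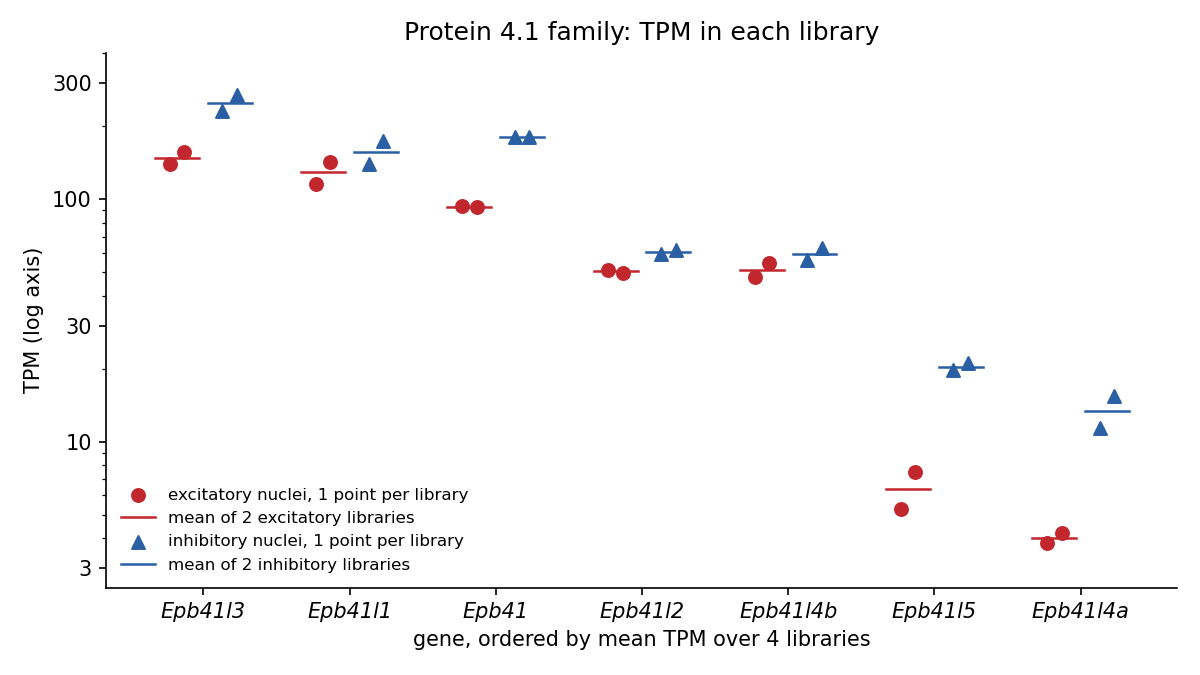
TPM of the 7 family members, on a log axis and ordered by mean level, with 1 point per library for the 2 excitatory (circles) and 2 inhibitory (triangles) libraries and a bar at each group mean. All members but Epb41l1 have both inhibitory points above both excitatory points, by the widest margins in Epb41l4a, Epb41l5 and Epb41.

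Among the distant relatives, Epb41l5 encodes a partner of Crumbs proteins at epithelial membranes. Its level was 5.28 and 7.52 TPM in the excitatory and 19.6 and 21.1 TPM in the inhibitory libraries. The groups lay far apart, the lowest inhibitory value being 2.61 times the highest excitatory value. The means were 6.40 ± 1.58 and 20.4 ± 1.01 TPM (SD, n = 2 each), a ratio of 3.18 and a difference of 1.55 on the log2 scale.

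Epb41l4a, a little studied member, was the scarcest of the family. Its level was 3.80 and 4.20 TPM in the excitatory and 11.4 and 15.3 TPM in the inhibitory libraries. The groups did not overlap, and the inhibitory libraries differed from each other by 0.40 on the log2 scale. The means were 4.0 ± 0.279 and 13.4 ± 2.81 TPM (SD, n = 2 each), a ratio of 3.34 and a difference of 1.51 on the log2 scale.

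Epb41l4b, a relative of Epb41l5 known from cell migration, behaved otherwise. Its level was 47.6 and 54.7 TPM in the excitatory and 55.9 and 62.9 TPM in the inhibitory libraries. The groups were separated by a ratio of only 1.02 between the lowest inhibitory and the highest excitatory value. The means were 51.2 ± 5.04 and 59.4 ± 4.93 TPM (SD, n = 2 each), the smallest difference of the family at 0.21 on the log2 scale.

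All 7 members thus had a higher mean in inhibitory nuclei, but by unequal amounts. Of the 7, 4 (Epb41, Epb41l3, Epb41l4a and Epb41l5) had an adjusted p under 0.05 in the fit of all genes and 0 were called higher in excitatory nuclei. Over all 26055 genes, limma called 6.62% higher in inhibitory and 5.43% higher in excitatory nuclei. Since these calls are what the family was chosen on, nothing is read from that count. The smallest difference among the called members was 0.75 (Epb41l3) and the largest among the uncalled was 0.28 (Epb41l1) on the log2 scale. For 6 of the 7 members the libraries did not overlap, with inhibitory higher, as for 33.3% of all genes tested. The median difference of the members was 0.75, against 0.07 over all genes tested. Without any 1 of the 4 libraries, and over the same genes, 0 members and 0 genes in all passed the adjusted threshold, with 5311 to 5812 genes at an unadjusted p under 0.05. With the low-value filter taken again on the 3 remaining libraries, the 4 members were called in each case but the one without the second inhibitory library, where only Epb41 and Epb41l5 were.

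**Figure D2:**
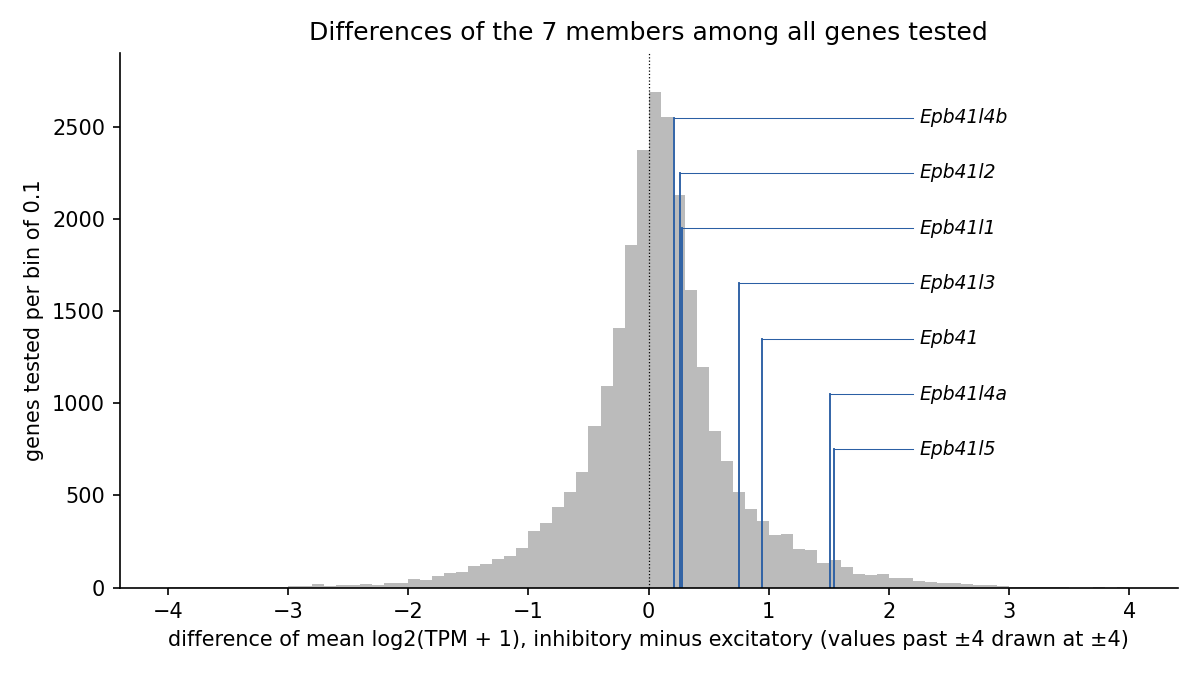
Histogram of the difference of mean log2(TPM + 1), inhibitory minus excitatory, over the 26055 genes tested, in bins of 0.1, with a line at the value of each family member, whose height carries no value. The members fall in 3 places, with Epb41l4b, Epb41l2 and Epb41l1 between 0.21 and 0.28, Epb41l3 and Epb41 at 0.75 and 0.95, and Epb41l4a and Epb41l5 at 1.51 and 1.55.

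The members were not ordered by the size of their difference as they were by their level. Over all 4 libraries, Epb41l3, Epb41l1 and Epb41 ranked 446, 797 and 858 by mean TPM among the genes tested, Epb41l2 and Epb41l4b ranked 3784 and 3788, and Epb41l5 and Epb41l4a ranked 12406 and 15200. The scarcest pair, Epb41l4a and Epb41l5, had differences larger in size than those of 95.3% and 95.6% of genes. Epb41l1, among the most abundant, stood at 47.0% by the same measure and Epb41l4b at 38.3%. The spread between replicates also differed among members. The second Epb41 library differed from the first by -0.02 on the log2 scale in the excitatory group and 0.00 in the inhibitory group, and that of Epb41l5 by 0.44 and 0.10. The median absolute difference between replicates over all genes tested was 0.22 in the excitatory group and 0.21 in the inhibitory group.

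The order of the members by TPM differed in places between the groups. In excitatory nuclei it ran from Epb41l3 through Epb41l1, Epb41, Epb41l4b, Epb41l2 and Epb41l5 to Epb41l4a. The libraries of Epb41l3 and Epb41l1 overlapped there, as did those of Epb41l4b and Epb41l2. In inhibitory nuclei it ran from Epb41l3 through Epb41, Epb41l1, Epb41l2, Epb41l4b and Epb41l5 to Epb41l4a, and only Epb41l2 and Epb41l4b overlapped. Epb41 therefore stood below Epb41l1 in both excitatory libraries and above it in both inhibitory libraries.

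Summed over the 7 members, the family made up 456 and 507 TPM in the excitatory and 696 and 782 TPM in the inhibitory libraries, with means of 481 ± 35.9 and 739 ± 61.0 TPM (SD, n = 2 each). Within that sum, the share of Epb41l1 was 26.7% ± 2.02 in excitatory and 21.1% ± 1.42 in inhibitory nuclei (SD, n = 2 each). The share of Epb41 was 19.4% ± 1.69 and 24.5% ± 1.97 in the same order. Epb41l3 held the largest share in every library, 30.6% ± 0.156 on average in excitatory and 33.6% ± 0.879 in inhibitory nuclei. Epb41l2 went from 10.5% to 8.19% and Epb41l4b from 10.6% to 8.04%, so that both had a smaller share in inhibitory nuclei although their TPM was higher there. Epb41l5 and Epb41l4a made up 1.32% and 0.831% of the sum in excitatory nuclei and 2.76% and 1.80% in inhibitory nuclei.

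**Figure D3:**
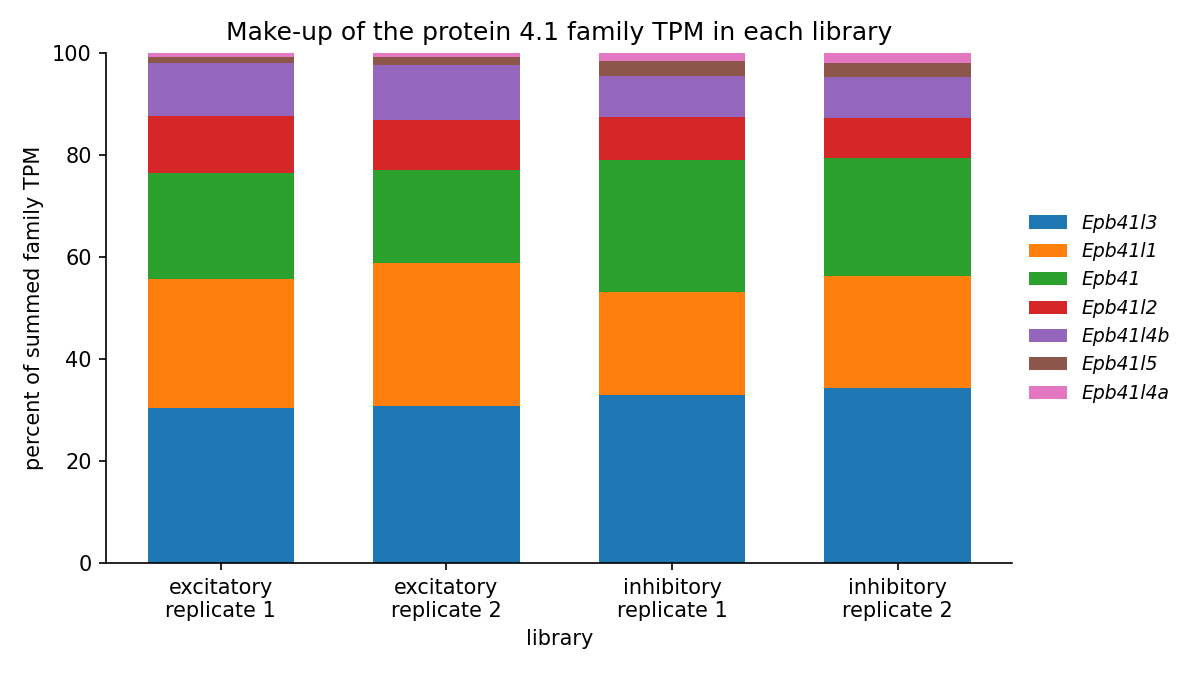
Percent of the summed TPM of the 7 family members that each member held in each of the 4 libraries, stacked to 100%. Epb41l3, Epb41l1 and Epb41 make up most of every bar, and the Epb41l1 segment is smaller in both inhibitory libraries than in both excitatory ones.

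In the GENCODE M21 annotation of the build mm10, the members are long genes on 6 chromosomes. Epb41 lies at chr4:131923413-132075321 on the minus strand and Epb41l4b on the same chromosome and strand at chr4:56991972-57143437. Epb41l1 lies at chr2:156420909-156543214, Epb41l2 at chr10:25359798-25523519 and Epb41l3 at chr17:69075683-69289989, all on the plus strand. Epb41l4a lies at chr18:33796327-34006966 and Epb41l5 at chr1:119545037-119649000, both on the minus strand. Their lengths ran from 104 kb (Epb41l5) to 214 kb (Epb41l3), against a median of 8.98 kb over the genes tested. The 7 genes have 89 annotated transcripts, from 7 each for Epb41l4a and Epb41l4b to 20 for Epb41l2, and the deposited values give 1 level per gene, so isoforms were not analysed here. No stretch of 50 bases was shared between the transcripts of any 2 members, so reads of that length or more that match exactly would not be split among them. The largest share of such stretches found in other genes was 0.944%, for Epb41l4b, all of them in Gm5684.

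Genes that overlap a member can share its reads where strand is not used in counting, and the sources used here do not say whether it was. Of 8 genes overlapping a member, all 8 had a higher mean in inhibitory nuclei and 1 passed the test. Over all genes tested, 6.62% were called higher in inhibitory nuclei, and the median log2 difference was 0.07. Some of the 8 hardly differed, with log2 differences of 0.007 for Gm47830 and 0.14 for Gm14224. Gm27445 and Gm37219 lie on the same strand as their member, so the use of strand would not separate their reads. The gene that passed, 2410021H03Rik, lies within Epb41l3 on the opposite strand and shares no exonic base with it. It stood at 24.3 and 29.8 TPM in the excitatory and 45.5 and 44.0 TPM in the inhibitory libraries, a log2 difference of 0.71 ± 0.14 (SE, adjusted p = 0.0303). Gm10300 overlaps the start of Epb41 on the opposite strand with 142 shared exonic bases, and had means of 3.36 and 6.72 TPM (adjusted p = 0.115), far below those of Epb41. Epb41l4aos, beside Epb41l4a but not overlapping it, had means of 15.4 and 14.7 TPM (log2 difference -0.04, adjusted p = 0.945), unlike Epb41l4a. Frrs1l, next to Epb41l4b on the same strand, had means of 94.7 and 72.5 TPM (log2 difference -0.38, adjusted p = 0.0870).

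The proteins that bind 4.1 proteins, or share their domain, were examined in 7 lists of 90 genes, written from general knowledge with earlier results of these data known. Of the 86 tested, limma called 11 (12.8%) higher in inhibitory and 9 (10.5%) higher in excitatory nuclei, against 6.62% and 5.43% of all genes. Their median log2 difference was 0.02, against 0.07 over all genes. With median-ratio scaling of the libraries the split was 11 and 14, and over the same genes 0 were called without any 1 library. With that filter taken again on 3 libraries, 8 to 10 were called higher in inhibitory and 3 to 6 in excitatory nuclei. The lowest of the latter, 3, was without the second excitatory library, and 4 and 5 were called without the first inhibitory and the first excitatory library.

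Spectrins are the long rods that protein 4.1 joins to actin. Of the 6 spectrin genes tested, 0 passed the limma test and 2 had an unadjusted p under 0.05, with a median log2 difference of -0.07 over the 6. Sptan1, the alpha subunit of neurons, stood at 621 and 718 TPM in the excitatory and 632 and 702 TPM in the inhibitory libraries, which overlapped (log2 difference -0.00 ± 0.13 SE, adjusted p = 0.987). The beta subunits Sptbn1 and Sptbn4 had log2 differences of -0.08 and -0.06 and overlapped between groups.

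Ankyrins tie spectrin to channels and adhesion molecules. Of the 3 ankyrin genes, Ank1, which encodes the ankyrin of the red blood cell skeleton, was higher in inhibitory nuclei, at 17.0 and 20.6 TPM in the excitatory and 52.6 and 69.6 TPM in the inhibitory libraries. Its groups did not overlap (log2 difference 1.64 ± 0.18 SE, adjusted p = 0.00526). Ank2 and Ank3, the abundant neuronal ankyrins, had log2 differences of -0.26 and -0.05 and did not pass the test. Of 12 linkers of the actin junction tested, 1 was called, Dmtn (dematin, an actin-bundling protein), lower in inhibitory nuclei with a log2 difference of -0.42 ± 0.10 (SE, adjusted p = 0.0444). Its call was lost with a pseudocount of 0.1, with no filter and without a trend in the variance prior.

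Membrane-associated guanylate kinases (MAGUKs) are scaffolds that 4.1 proteins bind next to their membrane partners. Among 12, Mpp7 was higher in inhibitory nuclei (means of 16.3 and 52.3 TPM, log2 difference 1.62 ± 0.13 SE, adjusted p = 0.00289). Dlg1, the scaffold SAP97, was lower there (means of 336 and 167 TPM, log2 difference -1.01 ± 0.11 SE, adjusted p = 0.00473). Mpp1, the partner of protein 4.1 in red blood cells, and Cask had log2 differences of 0.29 and -0.19 and did not pass the test.

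Of 21 membrane partners, 19 were tested, 5 were higher and 2 lower in inhibitory nuclei. Drd2, the dopamine D2 receptor, stood at 4.15 and 2.47 TPM in the excitatory and 30.4 and 32.7 TPM in the inhibitory libraries (log2 difference 2.94 ± 0.25 SE, adjusted p = 0.00307). Cntnap2, the Caspr2 protein beside nodes, had means of 55.8 and 112 TPM (log2 difference 0.99 ± 0.10 SE, adjusted p = 0.00435). Itpr1, the inositol trisphosphate receptor, had a log2 difference of 0.58 ± 0.11 (SE, adjusted p = 0.0251), and Drd3, named after its values were seen, one of 1.47 (adjusted p = 0.0303) at means of 0.518 and 3.22 TPM. Only the inhibitory libraries brought Drd3 past the low-value filter, its excitatory values being 0.409 and 0.628 TPM, so that its call is fixed in part by the filter. It is 1 of these 5 genes and of the 11 partners called higher in inhibitory nuclei. Adora1, the adenosine A1 receptor, was lower in inhibitory nuclei, with means of 53.9 and 29.1 TPM (log2 difference -0.87, adjusted p = 0.0124). Cntnap1 (0.64, adjusted p = 0.0718), Cadm1 (-0.26) and Numa1 (0.21) did not pass the test. The red-cell partner Gypc was listed at 0 in both inhibitory libraries and at 0.336 and 0.549 TPM in the excitatory ones, and was not tested.

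Among the 7 genes listed as polarity partners of Epb41l5, Patj was higher in inhibitory nuclei (means of 25.5 and 50.3 TPM, log2 difference 0.96, adjusted p = 0.0118). Lin7b was lower there (means of 149 and 90.0 TPM, log2 difference -0.74, adjusted p = 0.0272). The Crumbs genes Crb1, Crb2 and Crb3, named after their values were seen, were scarce and not called. Their means in excitatory and inhibitory nuclei were 2.05 and 4.28, 3.99 and 2.51, and 1.68 and 1.97 TPM. Of 27 other genes with a FERM domain, 3 were higher and 4 lower in inhibitory nuclei. The higher ones were Frmd4b (1.14, adjusted p = 0.00808), Myo10 (1.22, adjusted p = 0.00559) and Ptpn4 (0.59, adjusted p = 0.0289). The lower ones were Frmd6 (-1.52, adjusted p = 0.00464), Farp1 (-0.82, adjusted p = 0.0234), Ptpn3 (-0.88, adjusted p = 0.0210) and, named after its values were seen, Ptpn14 (-1.36, adjusted p = 0.0309). These FERM genes thus had calls in both directions. The calls of Itpr1, Lin7b, Ptpn4, Farp1 and Ptpn3 were lost with no filter and without a trend in the variance prior.

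**Figure D4:**
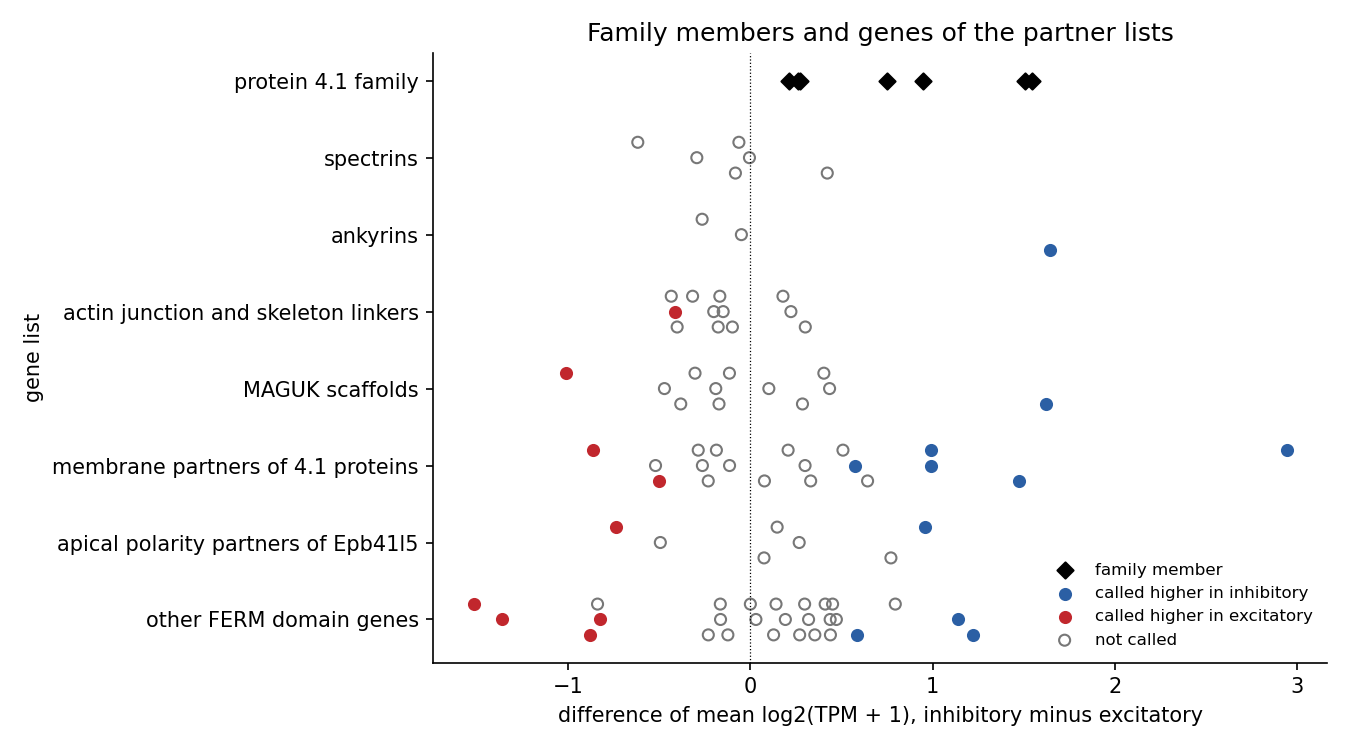
Difference of mean log2(TPM + 1), inhibitory minus excitatory, for the 7 family members (diamonds, all in the same colour whether called or not) and for each tested gene of the 7 partner lists (circles, filled where the adjusted p was under 0.05, blue for higher in inhibitory and red for higher in excitatory nuclei). The members lie to the right of 0, the 6 spectrins on both sides of it with none called, and the other lists run from -1.52 (Frmd6) to 2.94 (Drd2).

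The sorted nuclei held the markers of their labels. The summed level of 8 markers of excitatory forebrain neurons was 1002 to 1097 TPM in the excitatory and 267 to 281 TPM in the inhibitory libraries, and that of 7 markers of inhibitory neurons (6 of them tested) was 127 to 141 and 774 to 791 TPM. The inhibitory libraries also had more of the markers of striatal projection neurons (198 to 218 against 983 to 1011 TPM, 8 of 8 called), of Purkinje cells (379 to 403 against 792 to 858 TPM, 6 of 6) and of glutamatergic neurons outside the telencephalon (62.9 to 69.7 against 207 to 219 TPM, 5 of 6). Drd2 and Itpr1 stand on the striatal and Purkinje lists as well as among the membrane partners. Of the astrocyte, oligodendrocyte, oligodendrocyte precursor, microglial, endothelial and erythroid markers tested, limma called 0. At an unadjusted p under 0.05 there were 2 astrocyte, 1 oligodendrocyte precursor and 1 microglial markers. The 8 erythroid markers, 5 of them tested, summed to 70.6 to 114 TPM in the excitatory and 119.5 to 120.1 TPM in the inhibitory libraries, while Slc4a1 and Epb42 were under 1 TPM in all 4. Alas2 alone was the largest part of these sums, at 40.5 and 79.4 TPM in the excitatory and 79.0 and 85.7 TPM in the inhibitory libraries, which overlapped. The part of these cell types in the values of the 4.1 genes was not tested.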

How the data were processed

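Libraries were directional, made after removal of ribosomal RNA and read from both ends, per the labels' protocols. The authors deposited 1 table of TPM values with 1 column per library. The build mm10 and the tools StringTie 2.2.1, Bowtie2 2.3.5, HISAT2 2.2.1 and fastp 0.23.4 are named per the submitters' processing notes. The sources used here give neither their roles nor the annotation release nor whether strand was used.

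Values were taken as log2(TPM + 1), with a pseudocount of 1, which understates differences of low genes. The 26055 genes that reached 1 TPM or more in 2 or more of the 4 libraries were fitted with limma 3.58.1 in R 4.3.3 (linear model, variance trend, 2 residual degrees of freedom), tested on simulated data first. Tests were two-sided, with Benjamini-Hochberg adjustment over all genes tested, and an adjusted p under 0.05 is a call. Ratios are of mean TPM. An exact permutation test of 2 against 2 libraries cannot give a p below 0.333, so none was used. Column sums ran from 999833 to 999891, and correlations of log2 values were 0.967 and 0.968 within groups and 0.916 to 0.923 between them.

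Members and lists were chosen with earlier results of these data known. Named were all members, called partners with a higher mean of at least 20 TPM, the 3 most abundant genes of each list, 14 partners listed by name, genes overlapping a member or within 10000 bases, and for each member the 2 genes with the nearest pattern. Some of the genes of this rule are not reported here. Alternatives were a pseudocount of 0.1, no filter, a minimum of 5 TPM, 2 other scalings, no variance trend, a replicate block and leaving out each library. Leaving out a library with the filter taken again was added after seeing the data.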

Additional observations from a re-analysis of the deposited data

How the results depend on the processing

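The log2 differences of the 7 members stayed above 0 in all 15 alternatives, from 0.88 to 0.97 for Epb41, 0.12 to 0.43 for Epb41l1, 0.19 to 0.28 for Epb41l2, 0.64 to 0.86 for Epb41l3, 1.31 to 1.71 for Epb41l4a, 0.11 to 0.31 for Epb41l4b and 1.33 to 1.77 for Epb41l5. With no filter, calls dropped to 740 genes higher in inhibitory and 666 higher in excitatory nuclei. Members called were then 2 (Epb41 and Epb41l5), higher in inhibitory nuclei, and partners called were 8 higher in inhibitory and 3 higher in excitatory nuclei. That setting tested 37740 genes. Partners called higher in excitatory nuclei numbered 14 with median-ratio scaling and 4 without the variance trend. Members called numbered 3 without the variance trend. Leaving out any 1 library over the same genes left 0 calls (range 0 to 0) for all genes, members and partners in both directions, with smallest adjusted p-values between 0.0545 and 0.0664. With the filter taken again, genes called higher in inhibitory nuclei numbered 1064 and 1085 without the first and the second excitatory library and 871 and 800 without the first and the second inhibitory one. Those higher in excitatory nuclei numbered 813, 604, 893 and 1039 in the same order. Members called numbered 4, 4, 4 and 2, and partners ranged from 8 to 10 and from 3 to 6. The cause of these changes was not tested.

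With the replicate block, 2382 genes were higher in inhibitory and 1946 in excitatory nuclei, 5 members were called (Epb41l1 added), and partners numbered 17 and 16. The labels do not say that replicate numbers pair libraries. The deviations of same-numbered libraries correlated at 0.0957 across genes. With only 2 numbers this cannot decide whether the libraries are paired, and the pairing was not tested further. Of the 18 named partners called, 11 were called in all 7 settings other than leaving a library out, 7 lost the call in at least 1 and 0 changed sign. Depth is unknown, so the precision of the scarce members Epb41l4a and Epb41l5 rests on 2 libraries per group alone.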

Other observations

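Genes whose values over the 4 libraries lay nearest to each member were found by Euclidean distance. It was taken between log2(TPM + 1) values centred on their mean, among 12285 tested genes with a mean of at least 5 TPM. Members and genes with symbols of predicted genes or clones were left out. These distances use the same values that the family was chosen on and are a description. The nearest to Epb41 was Gal3st1, a sulfotransferase of myelin lipid synthesis, at a distance of 0.018, with 4.09 and 3.97 TPM in the excitatory and 8.67 and 8.84 TPM in the inhibitory libraries. The second was Kcnab1, a potassium channel subunit, at 0.0444, with 70.3 and 69.6 against 140.5 and 139.4 TPM. For Epb41l3 they were Onecut2, a transcription factor (0.0181), and Ccm2 (0.0264). For Epb41l4a they were Lama3, a laminin chain (0.0508), and Ace, the angiotensin-converting enzyme (0.124). For Epb41l5 they were Cd164l2 (0.0948) and Dchs2, a cadherin (0.133).

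Epb41l5 and Epb41l4a, the members with the largest differences, had 7 and 14 of these genes within a distance of 0.2. Epb41 had 146 and Epb41l3 had 188 within that distance. The members with small differences had 708 (Epb41l1), 1715 (Epb41l2) and 1776 (Epb41l4b) genes within it. Their nearest genes were Dennd6b (0.0136) and Gid4 (0.0217) for Epb41l1, Psmd11 (0.0067) and Cstf2 (0.0147) for Epb41l2, and Senp7 (0.00368) and Adck1 (0.0102) for Epb41l4b.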
